A study of Rattus norvegicus with 12 samples.

Results

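Htr2a and Htr3a encode the serotonin receptor 5-HT2A and the A subunit of the serotonin receptor 5-HT3. Their RNA was followed in the right trigeminal ganglion, the ganglion of the sensory neurons that supply the face, teeth and meninges. The 2 genes were chosen by their Ensembl rat identifiers, ENSRNOG00000010063 for Htr2a and ENSRNOG00000006595 for Htr3a. The reason was their place in serotonin-evoked trigeminal pain, though earlier results of these data were known. The names were given with these identifiers, and the files used here list identifiers alone, so the match of name to identifier was not checked. They are 2 of the 32545 genes listed in each library.

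The ganglia were taken from female rats of the Sprague Dawley strain, 1 week after a capsule had been implanted. Vehicle capsules held cholesterol alone. The remaining capsules released estradiol (E2), the chief estrogen of the ovary. A content of 5% is labelled as the diestrus level, 20% as the proestrus level and 40% as a therapeutic level. Each of the 4 groups has 3 libraries, which the labels do not tie to animals of their own, so that p-values measure the spread between these libraries. The labels give neither the age of the rats nor whether their ovaries had been removed. The study asks how E2 changes the response of trigeminal sensory neurons to serotonin, and the libraries bear on one aspect of it, the RNA level of these receptors at each dose.

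Serotonin is released in injured or inflamed tissue, from platelets and in the rat from mast cells, and excites or sensitizes pain-sensing nerve endings. 5-HT2A is a receptor coupled to the G protein Gq. It activates phospholipase C and protein kinase C, and in sensory neurons it is known for sensitizing the ending to other stimuli and for promoting neuropeptide release. 5-HT3 is the only serotonin receptor that is an ion channel. It opens to cations within milliseconds, and the A subunit is the one that every working 5-HT3 channel contains. Estradiol acts through nuclear receptors that bind DNA and through receptors at the membrane. In the RefSeq table of assembly GRCr8, Htr3a lies next to Htr3b, the gene of its partner subunit, on one side and Zbtb16 on the other, and Htr2a lies between Sucla2 and Esd.

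Levels are given as FPKM, in which fragments are divided by the length of the gene model and by a divisor for library depth. This is meant to let genes as well as libraries be compared. The authors' divisor, recovered from the values, was not equal to the sum of the recovered fragments. It was 17408221 against 16978830 in vehicle replicate 1 and 13421417 against 13559866 in vehicle replicate 2, and the reason was not tested. Depth, taken here as the sum of recovered fragments, was 13281981 to 16978830 per library. It was 13281981 to 13801880 in the 40% E2 group and 15215750 to 16121001 at 5% E2, so that these groups did not overlap in depth. Vehicle replicate 1 stood apart from the rest. Its mean distance to the others (root mean square on the log2(FPKM + 1) scale) was 0.479, against 0.409 to 0.437 for the other 11 libraries, and its 17843 genes above 0 were fewer than in any other library (highest 18836). In a bulk ganglion, fewer cells of a type and less RNA per cell cannot be told apart. The reference table at hand carries no Ensembl identifiers and matched none of the 32545, so markers of neurons, glia, immune or vascular cells, the other serotonin receptors, the serotonin-handling enzymes and the estrogen receptors were not analysed here.

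Htr3a was an abundant transcript of the ganglion and Htr2a a sparse one. Htr3a averaged 67.0 FPKM over the 12 libraries (range 59.8 to 76.5), above 94.5% of the 22821 genes with any fragment. Htr2a averaged 1.43 FPKM (range 1.13 to 2.21), above 42.1% of them. Per length, Htr3a RNA was 34.6 to 62.2 times as abundant as Htr2a RNA in the same library, with a mean ratio of 48.3 ± 8.53 (SD, n = 12). Htr2a values rested on 72 to 137 fragments per library and Htr3a values on 1800 to 2437. Counting error alone would therefore give a coefficient of variation of about 10.1% for Htr2a and 2.23% for Htr3a.

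**Figure D1:**
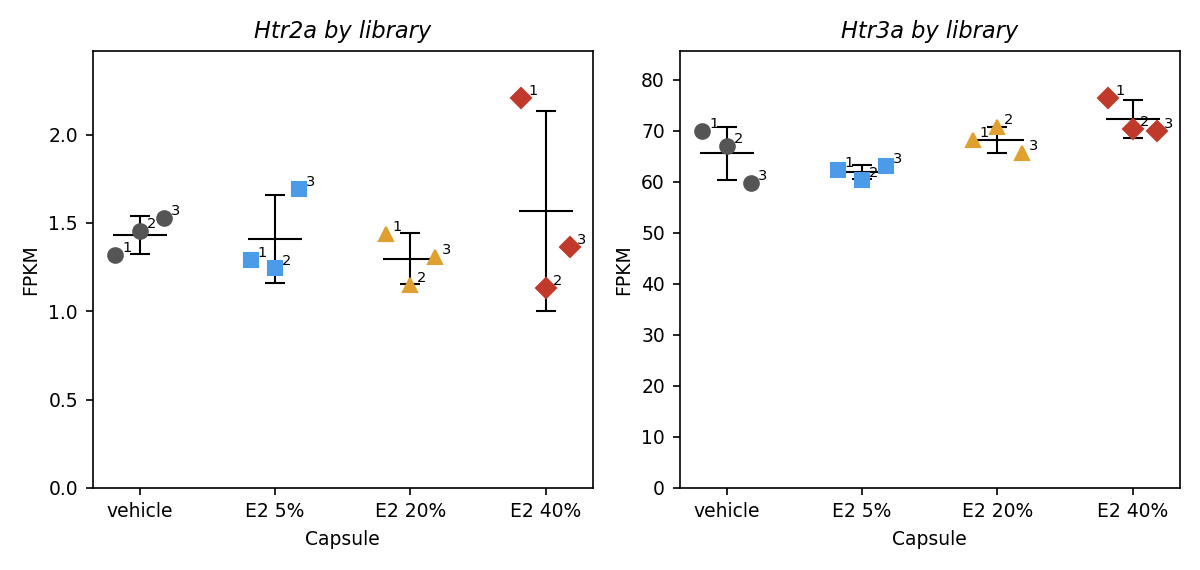
Htr2a (left) and Htr3a (right) in FPKM in each of the 12 libraries, by capsule. Symbols are libraries labelled with their replicate number, horizontal bars are group means and whiskers are ± 1 SD (n = 3). The Htr2a groups overlap one another, with 40% E2 replicate 1 highest at 2.21, while the 3 Htr3a libraries at 5% E2 (60.4 to 63.2) lie below all those at 20% and 40% E2.

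Htr2a, the Gq-coupled receptor, did not differ between any pair of groups beyond the spread of the libraries. The vehicle libraries had 1.32, 1.45 and 1.53 FPKM. At 5% E2 the values were 1.29, 1.24 and 1.69 FPKM. At 20% E2 they were 1.44, 1.15 and 1.30 FPKM, the range of which lies partly within that of vehicle. At 40% E2 they were 2.21, 1.13 and 1.36 FPKM, so that this group held both the highest and the lowest Htr2a value of the series. The groups overlapped in all 6 pairs.

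The group means of Htr2a were, from low to high, 1.30 ± 0.145 FPKM (SD, n = 3) at 20% E2, 1.41 ± 0.248 at 5% E2, 1.43 ± 0.106 in vehicle and 1.57 ± 0.568 at 40% E2. No neighbours in that order differed beyond their spread. Against vehicle, the difference in log2(FPKM + 1) was −0.019 ± 0.16 (SE) at 5% E2, −0.083 ± 0.16 at 20% E2 and 0.056 ± 0.16 at 40% E2, with limma adjusted p of 0.994, 0.962 and 0.975. At 20% E2 it was −0.036 without replicate 2 of that group. On that scale the change of a gene as low as Htr2a is understated. Limma's voom fit of the recovered fragments, which needs no pseudocount of that size, gave 0.976-fold of vehicle (95% interval 0.696 to 1.37) at 5% E2, 0.906-fold (0.639 to 1.28) at 20% E2 and 1.05-fold (0.746 to 1.48) at 40% E2. These intervals, not adjusted over genes, give the range of Htr2a changes compatible with these libraries. They are not a limit of detection.

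A single library set the direction of the Htr2a difference at 40% E2. Replicate 1 of that group had 137 fragments of Htr2a, 2.21 FPKM with a 95% Poisson interval of 1.86 to 2.61, against 72 fragments and an interval of 0.884 to 1.42 in replicate 2. The intervals of these libraries of the same group did not overlap. Without replicate 1 the difference from vehicle was −0.12 (limma adjusted p = 0.943). The slope on capsule percentage also turned, from 0.00128 to −0.00304 log2 units per percent (adjusted p = 0.974 with it and 0.903 without it).

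Htr3a, the channel subunit, was lowest at 5% E2 and highest at 40% E2, by small steps, and no comparison passed the threshold. The vehicle libraries had 69.9, 67.0 and 59.8 FPKM and spanned most of the range of the other groups. At 5% E2 the values were 62.3, 60.4 and 63.2 FPKM, with a coefficient of variation of 2.27%. At 20% E2 they were 68.2, 70.7 and 65.7 FPKM. At 40% E2 they were 76.5, 70.3 and 69.9 FPKM. All 3 libraries at 40% E2 lay above all 3 of vehicle, the closest of them at 69.9309 against 69.9257 FPKM in vehicle replicate 1. A margin that small depends on the authors' divisor, which in vehicle replicate 1 was 17408221 against 16978830 recovered fragments. The libraries at 20% and at 40% E2 lay above all those at 5% E2.

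The group means of Htr3a were 62.0 ± 1.40 FPKM (SD, n = 3) at 5% E2, 65.6 ± 5.19 in vehicle, 68.2 ± 2.51 at 20% E2 and 72.3 ± 3.70 at 40% E2. Neighbours in that order did not differ beyond their spread (limma unadjusted p of 0.277, 0.416 and 0.252). Against vehicle the difference in log2(FPKM + 1) was −0.078 ± 0.068 (SE) at 5% E2, 0.057 ± 0.068 at 20% E2 and 0.14 ± 0.068 at 40% E2. The limma adjusted p was 0.906, 0.930 and 0.878 in turn. Of the 19017 genes tested, 0% were called at 5% E2, 0.0105% at 20% E2 and 0% at 40% E2 by limma adjusted p under 0.05, and 5.35%, 6.01% and 5.72% had an unadjusted p under 0.05 (limma). Groups that do not overlap were common too: 4.89% of the genes tested had all 3 libraries at 40% E2 above all 3 of vehicle.

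The Htr3a differences from vehicle moved with single vehicle libraries. Without vehicle replicate 1, the library that stood apart, the difference was −0.031 at 5% E2, 0.10 at 20% E2 and 0.19 at 40% E2 (limma adjusted p of 1.00, 0.987 and 1.00). Without vehicle replicate 3, the lowest for Htr3a, it was −0.14, −0.0062 and 0.076 (adjusted p of 0.795, 0.990 and 0.804), so that at 20% E2 the direction turned.

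**Figure D2:**
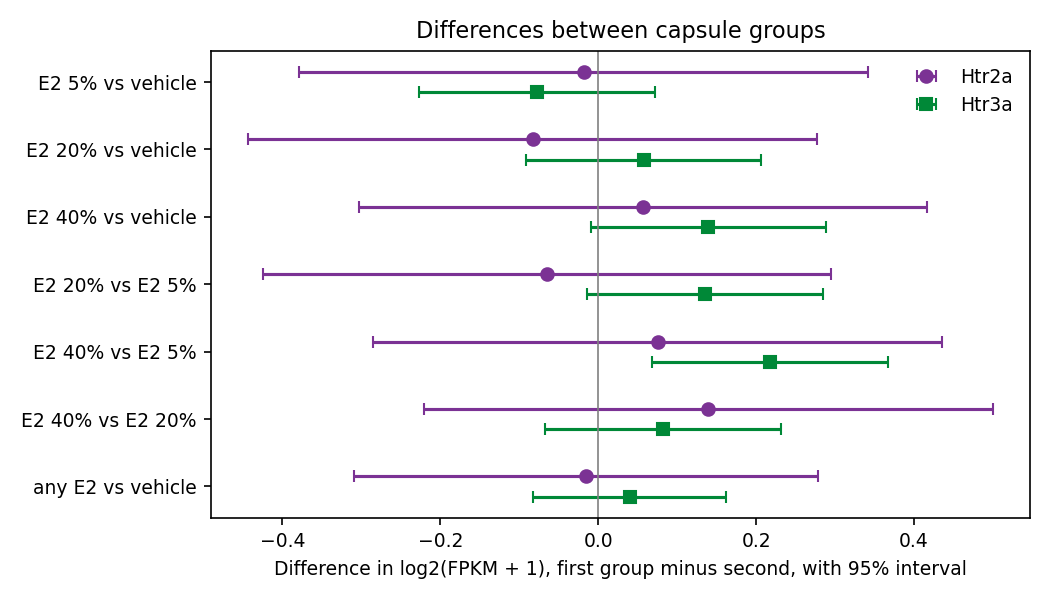
Difference in log2(FPKM + 1) between groups (x axis, first group minus second) with its 95% interval from the limma fit of all 12 libraries, for Htr2a (circles) and Htr3a (squares) in 7 comparisons. The intervals of Htr2a are wider, and the interval of Htr3a between 40% and 5% E2, from 0.068 to 0.37, is the one of the 14 that does not include 0, before adjustment over genes.

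Between doses, the largest difference of Htr3a was that of 40% from 5% E2. The step from 5% to 40% E2 was 0.22 ± 0.068 (SE) on the log2(FPKM + 1) scale, a 16.6% higher mean FPKM, with a limma unadjusted p of 0.00837 and an adjusted p of 0.975. By that p it ranked 119 of 19017 genes, of which 4.46% had an unadjusted p under 0.05, and 0% were called. All 3 libraries of 40% E2 were above all 3 of 5% E2 in 4.89% of the genes tested. From 5% to 20% E2 the difference was 0.14 ± 0.068 (unadjusted p = 0.0719, limma adjusted p = 0.983), where 4.41% of genes had an unadjusted p under 0.05, and 5.07% had groups separated in that direction. From 20% to 40% E2 it was 0.082 ± 0.068 (limma adjusted p = 1.00), where 3.18% of genes had an unadjusted p under 0.05, and 0.0105% were called. Without 40% E2 replicate 1 that difference was 0.041. All 3 libraries at 40% E2 were also shallower than all 3 at 5% E2, and the part of depth in the difference was not tested. A vehicle library as shallow as those at 40% E2, replicate 2 with 13559866 fragments, had 67.0 FPKM of Htr3a. At 20% E2, replicate 1 with 13320156 fragments had 68.2, and replicate 2 with 13851803 had 70.7. The deepest library, vehicle replicate 1 with 16978830 fragments, had 69.9. The next deepest, 20% E2 replicate 3 with 16900117 and vehicle replicate 3 with 16766205, had 65.7 and 59.8. Apart from vehicle replicate 1, every library with at least 15215750 fragments had less Htr3a than every library with at most 13851803. The voom fit of the recovered fragments gave a 1.17-fold difference between 40% and 5% E2, with a 95% interval of 1.04 to 1.30. Htr2a differed between the same groups by 1.08-fold, with an interval of 0.762 to 1.52.

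Over all 4 groups, Htr3a had an exact permutation p of 0.0403 (one-sided on the F statistic, F = 4.58, every assignment of 12 libraries to 4 groups of 3), and 0.202 after Benjamini-Hochberg adjustment over the 5 exact permutation tests between groups. Htr2a had an exact permutation p of 0.885 (adjusted 0.900). In the fit of all genes, the moderated F-test gave Htr3a an unadjusted p of 0.0474 (limma adjusted p = 0.967), where 4.71% of all genes had a p under 0.05 and 0% were called. The exact permutation p of Htr3a rose above 0.05 when any single library other than vehicle replicate 1 or 3 was left out, up to 0.104 without 40% E2 replicate 1. It was 0.0208 without vehicle replicate 1 (0.104 after adjustment over the same 5 tests). Without vehicle replicate 3, the lowest vehicle library for Htr3a, the exact permutation p was 0.00734 and the adjusted value 0.0367. That value is under 0.05, but it is the smallest of the 12 leave-outs and was not adjusted over them. The moderated F-test without the same library gave Htr3a a limma adjusted p of 0.852.

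Along the dose, Htr3a had a slope of 0.00455 ± 0.00155 log2 units per percent of E2 in the capsule (limma unadjusted p = 0.0118, adjusted p = 0.800). It ranked 275 of 19017, and 5.7% of genes had an unadjusted p under 0.05, of which 0% were called. The means are not in the order of the dose, since vehicle lay above 5% E2. Htr2a had a slope of 0.00128 ± 0.00351 (limma adjusted p = 0.974). For the 3 doses together against vehicle, the difference was 0.040 ± 0.055 for Htr3a and −0.015 ± 0.13 for Htr2a on the log2(FPKM + 1) scale, with exact permutation p of 0.595 and 0.900 (two-sided, 220 choices of 3 libraries, adjusted 0.900 for both). In that comparison 6.37% of genes had a limma unadjusted p under 0.05 and 0% were called. The comparisons with vehicle share the same 3 vehicle libraries, so the differences at the 3 doses are not independent of one another.

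Both genes varied less between libraries of a group than most genes of their level. The within-group SD of log2(FPKM + 1) was 0.179 for Htr2a, and 17.8% of the 500 genes nearest to it in mean FPKM had a smaller one (median 0.288). For Htr3a it was 0.0742, and 19.4% of its 500 neighbours had a smaller one (median 0.104). The chi-square of the fragments within groups was 4.44 per degree of freedom for Htr2a and 5.73 for Htr3a, where counting alone gives a value near 1. In leave-outs added after seeing the data, it was 1.58 for Htr2a without 40% E2 replicate 1 and 2.84 for Htr3a without vehicle replicate 3.

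**Figure D3:**
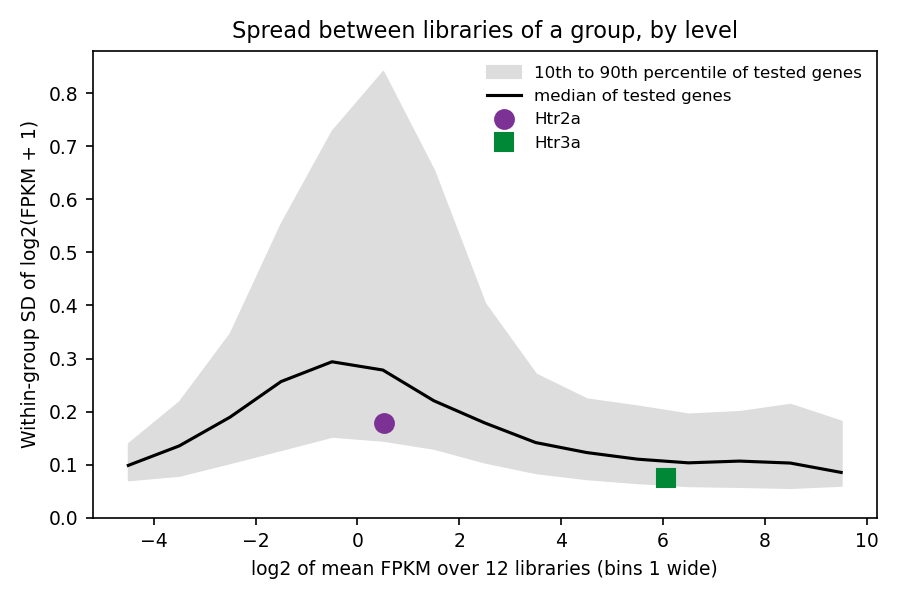
Within-group SD of log2(FPKM + 1) (y axis) against the log2 of mean FPKM (x axis), over the genes tested in bins 1 wide with at least 20 genes. The line is the median gene, the band runs from the 10th to the 90th percentile, and both Htr2a (0.179) and Htr3a (0.0742) lie under the median of genes of their level.

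No common rise and fall of the 2 receptors across libraries was detected. Pearson's r between their log2(FPKM + 1) values was 0.264 (permutation p = 0.413, n = 12) and Spearman's rho −0.0909 (permutation p = 0.782), with Benjamini-Hochberg adjusted values of 0.551 and 0.782 over the 4 correlations tested here. Without the 2 libraries farthest from the median of Htr2a, 40% E2 replicate 1 and 5% E2 replicate 3, r was −0.366 (permutation p = 0.294, n = 10). The positive r thus rests on 40% E2 replicate 1, which had the highest level of both genes, and without that library alone r was −0.422 (permutation p = 0.195, n = 11).

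**Figure D4:**
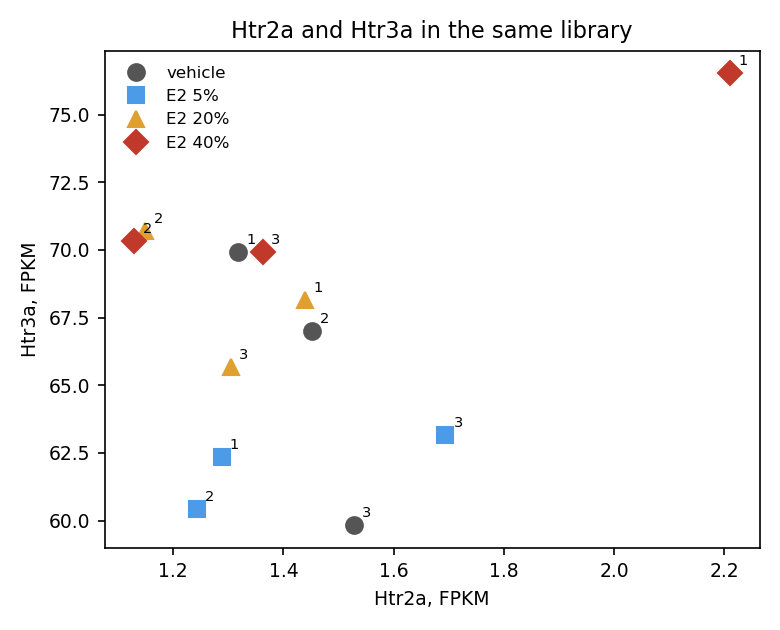
Htr3a (y axis, FPKM) against Htr2a (x axis, FPKM) in the same library, with symbols by capsule group and numbers for the replicate; neither axis starts at 0. The library at the upper right is 40% E2 replicate 1 (2.21 and 76.5 FPKM), and the other 11 show no rising pattern.

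The ratio of Htr3a to Htr2a, the balance of channel to Gq-coupled receptor RNA within a library, varied within groups by as much as the group means differed. In vehicle it was 53.0, 46.1 and 39.2, at 5% E2 48.4, 48.6 and 37.3, at 20% E2 47.3, 61.5 and 50.3, and at 40% E2 34.6, 62.2 and 51.3. The group means were 46.1 ± 6.94 (SD, n = 3), 44.8 ± 6.48, 53.1 ± 7.45 and 49.4 ± 13.9 in that order. The 40% E2 group held both the lowest and the highest ratio. The exact permutation p over the 4 groups was 0.519 (adjusted 0.900), on the difference of the log2(FPKM + 1) values.

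The genes whose pattern over the 12 libraries was most like each receptor are given by identifier. Among 14017 other genes with a mean of at least 1 FPKM, ENSRNOG00000005386 (23.9 FPKM, Pearson's r of 0.912) and ENSRNOG00000016511 (25.1 FPKM, r of 0.894) were most like Htr2a. ENSRNOG00000020275 (2.44 FPKM, r of 0.866) and ENSRNOG00000003397 (14.8 FPKM, r of 0.862) were most like Htr3a. They are the extremes of many correlations over few libraries: the top 1% of genes reached 0.662 for Htr2a and 0.638 for Htr3a.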

How the data were processed

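The deposited per-library files hold FPKM values computed by the authors, per the names of the deposited files. The tools listed in the submitters' processing notes, without roles or versions, are HISAT2, featureCounts, fastp, CASAVA and DESeq2. Build, annotation and strand setting were not given in the sources used here. A table of the whole series was not used, because its header and its 12 value columns are not aligned. The members and lists were chosen with earlier results of these data known.

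Genes that reached an FPKM of 0.1 in 3 or more libraries (19017 of 32545) entered 1 limma-trend fit (limma 3.58.1, R 4.3.3, robust) of log2(FPKM + 1) on the 4 groups, with Benjamini-Hochberg adjustment within each comparison and a threshold of 0.05. Both receptors passed this filter. The fit was tested on simulated data. Whole fragments were recovered from the steps of the FPKM values for all 21071 genes above 0 in at least 2 libraries (largest deviation from a whole number 9.24e-05), with gene models of 4619 bases for Htr2a and 2002 for Htr3a as the smallest lengths that give whole fragments. The fragments entered limma's voom as an alternative. Poisson intervals cover counting error only, since fragments are not independent molecules. No pair of libraries within a group looked like a duplicate deposit of 1 library (chi-square per gene at least 7.28), which does not show that they come from separate animals. Single values were tested by exact permutation. Named genes are the 2 receptors and the 2 genes most correlated with each. None of the 32545 identifiers matched the RefSeq table of 47357 genes, so the gene lists and cell type markers of the plan were not analysed. Depth per library is given with the results. The alternatives tried are given in the closing section.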

Additional observations from a re-analysis of the deposited data

Results flagged for a closer look

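Htr3a met the criterion of libraries that move in opposite directions in 2 comparisons. All 3 libraries at 5% E2 lay below the vehicle mean of 65.6 FPKM, and all 3 at 20% E2 and all 3 at 40% E2 lay above it. The share of the genes tested that met this criterion was not counted, so how rare the pattern is remains unknown. The doses were tested against each other: the difference in log2(FPKM + 1) was 0.14 between 20% and 5% E2 (limma unadjusted p = 0.0719, adjusted p = 0.983) and 0.22 between 40% and 5% E2 (unadjusted p = 0.00837, adjusted p = 0.975). Neither passed the threshold. Groups separated in the same direction were found in 5.07% of the genes tested for 20% against 5% E2. For 40% against 5% E2 the share was 4.89%. The lowest library at 20% E2, at 65.7 FPKM, was above the vehicle mean by far less than the vehicle SD of 5.19 FPKM. All 3 libraries at 5% E2 lay within the vehicle range of 59.8 to 69.9 FPKM. The vehicle mean rests in part on replicate 3, the lowest vehicle library. Without it the difference of 20% E2 from vehicle was −0.0062.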

How the results depend on the processing

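In the fits of all genes, no difference of Htr2a or Htr3a passed a limma adjusted p of 0.05 under any of the alternatives run: another pseudocount (0.1), a stricter filter (FPKM of at least 1), no filter, limma's voom on recovered fragments with and without sample weights, rescaling, the replicate block, the compared groups alone and leaving out each library. Under those that leave out no library of the groups compared, every difference of the 2 genes kept its direction. Only the other pseudocount, rescaling and voom could have turned it. The filters, the replicate block, the compared groups alone and leaving out a library of another group cannot change a difference of group means.

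Leaving out 1 library turned some directions that were near 0 and changed the size of other differences. For Htr2a the difference in log2(FPKM + 1) ranged from −0.10 to 0.030 for 5% E2 against vehicle, from −0.13 to −0.036 for 20% E2 against vehicle, from −0.12 to 0.18 for 40% E2 against vehicle, from −0.11 to 0.019 for 20% against 5% E2, from −0.097 to 0.20 for 40% against 5% E2, from −0.033 to 0.26 for 40% against 20% E2, and from −0.073 to 0.026 for any E2 against vehicle (−0.067 to 0.013 with libraries rather than dose means weighted equally). Its slope ranged from −0.0030 to 0.0037 per percent. For Htr3a it ranged from −0.0062 to 0.10 for 20% E2 against vehicle and from 0.041 to 0.11 for 40% against 20% E2. For any E2 against vehicle it was −0.024 to 0.087. For 5% E2 against vehicle the Htr3a range was −0.14 to −0.031, and for 40% E2 against vehicle 0.076 to 0.19. For 20% against 5% E2 it was 0.11 to 0.16, and for 40% against 5% E2 0.18 to 0.24. The Htr3a slope ranged from 0.0036 to 0.0055 per percent. The correlation of the 2 genes ranged from −0.422 to 0.375. The F of the Htr3a permutation test ranged from 3.06 to 8.64, with an exact permutation p over 0.05 in 10 of the 12 cases. Without vehicle replicate 3 the exact permutation p was 0.0367 after adjustment over 5 tests, but not over the 12 leave-outs. These fits assume that a group of 2 varies like the others.

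The number of genes called changed with the settings. For 20% E2 against vehicle it was 2, and 1 with pseudocount 0.1 or the stricter filter, 0 with no filter, either voom, the replicate block or the compared groups alone, and 0 to 2 leaving out a library. For 40% against 20% E2 it was 2, and 4 with pseudocount 0.1, 1 with the stricter filter, either voom or the compared groups alone, 0 with no filter or the replicate block, and 0 to 3 leaving out a library. Elsewhere it was 0 and became 1 for 40% E2 against vehicle (compared groups alone; 0 to 1 leaving out a library), 20% against 5% E2 (pseudocount 0.1; 0 to 6), 40% against 5% E2 (stricter filter, weighted voom or compared groups alone; 0 to 2), any E2 (stricter filter; 0 to 1) and any difference (pseudocount 0.1 or either voom; 0 to 8). For 5% E2 against vehicle it was 0 to 1 leaving out a library. Replicate numbers are shared across groups, and no pairing by number was seen: none of 18 correlations of same-numbered libraries exceeded 0.1. Each correlation runs over many genes, so it cannot exclude a pairing that touches few of them. With the replicate block, the Htr3a difference between 40% and 5% E2 was 0.22 (limma adjusted p = 0.970). At 72 to 137 fragments per library, counting error alone gives Htr2a a coefficient of variation of about 10.1%, against 20.5% observed over the 12 libraries. Without 40% E2 replicate 1, the chi-square of the Htr2a fragments within groups fell from 4.44 to 1.58 per degree of freedom.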
